A study of Caenorhabditis elegans with 6 samples.

Results

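Among the 16391 genes of the FPKM table, 223 carry a name that begins with fbxa-, fbxb- or fbxc- followed by a digit, and these F-box genes are described here. They comprise 140 fbxa, 54 fbxb and 29 fbxc genes. Genes were taken by name alone, but the set was chosen with earlier results of these data known. Whole worms of the wild-type strain N2, fed E. coli OP50, were sequenced as L4 larvae, 3 libraries being from worms grown at 15°C and 3 from worms grown at 25°C. No genotype or agent differed between the groups, and temperature was the only labelled difference. According to the study's methods, parents were moved to each temperature and the offspring grew up there, egg laying at the lower temperature being begun earlier so that both groups could be collected at a matched L4 stage, whereas the labels describe culture started with synchronized L1 larvae. Whether the stages matched was not tested here. The labels do not say whether the libraries of a group came from separate cultures, so p-values measure only the spread between these libraries. The comparison asks which of these genes differ in expression between worms raised at 25°C and worms raised at 15°C.

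F-box proteins are the substrate adaptors of SCF ubiquitin ligases. In these complexes a cullin scaffold (CUL-1) holds a RING subunit (RBX-1), which recruits the ubiquitin-conjugating enzyme, and a Skp1-related protein (SKR), which binds the F-box, while the rest of the F-box protein binds the protein to be ubiquitinated. C. elegans has a greatly expanded set of such genes, many of them in tandem arrays on the chromosome arms, and most have no known substrate. Many fbxa proteins carry an FTH domain, named after FOG-2, next to the F-box, whereas fbxb proteins carry a different F-box-associated domain. Members of such expanded families can be close in sequence, and aligned reads may be split between near-identical copies, so values of single members carry an uncertainty that could not be measured here.

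The subfamilies differed in how much they were expressed at all. FPKM give fragments relative to transcript length and to all mapped fragments of a library, so levels can be set side by side between genes. Of the 140 fbxa genes, 94 averaged 1 FPKM or more across the 6 libraries, the level required for testing, against 14 of 29 fbxc genes and 3 of 54 fbxb genes. Over all genes of the table, 79.3% reached that level. The median fbxb gene had a mean of 0.0647 FPKM, the median fbxc gene 0.396 FPKM and the median fbxa gene 3.28 FPKM. Of the 112 F-box genes that were not tested, 98 stayed under 1 FPKM in every library. The highest mean was that of fbxa-84, 197 FPKM, and only 4 of the 223 genes had a mean of 100 FPKM or more, all of them fbxa genes.

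Many fbxa genes were more highly expressed at 25°C. No fbxb or fbxc gene was called higher, but only 3 fbxb and 14 fbxc genes were tested. The temperatures were compared gene by gene with limma on log2(FPKM + 0.5) over 12996 tested genes, and a gene was called where its log2 fold change (log2FC, 25°C against 15°C, given with its standard error, SE) was beyond 1 and its adjusted p under 0.01. Of the 94 tested fbxa genes, 28 were called higher at 25°C and 2 lower. Over all tested genes 6.96% were called higher and 5.59% lower. Among so few tested fbxb and fbxc genes, 0 called higher is near that share. After rescaling to TPM the genes called higher made up 73.5% of all called genes, and with equal library sums 74.2%, against 55.5% here. The median log2 fold change of the tested fbxa genes was 0.67, against -0.032 for all tested genes, and 75 of the 94 lay above 0, where 48.2% of all tested genes did. In 57 of the 94 fbxa genes the 3 libraries at 25°C lay above all 3 at 15°C, against 25.9% of all tested genes, and in 9 they lay below, against 28.7%. The 28 genes called higher had log2 fold changes from 1.04 to 3.41, with a median of 1.65.

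The fbxc genes lay on the other side. Of 14 tested, 3 were called lower and 0 higher by limma, 1 being higher and 5 lower by an unadjusted p under 0.05. By that unadjusted p, 22.9% of all tested genes were higher and 26.9% lower. The stricter treat, limma's test against a 2-fold change, called 0 in either direction. Treat cannot call a gene that limma did not, so here and below its 0 adds nothing where limma called 0. The median log2FC of the tested fbxc genes was -0.43, and 12 of the 14 lay below 0. Of the 3 tested fbxb genes, fbxb-67 was called lower and 0 were called higher by limma or treat, 0 being higher and 1 lower by an unadjusted p under 0.05. The difference between subfamilies was not tested.

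**Figure D1:**
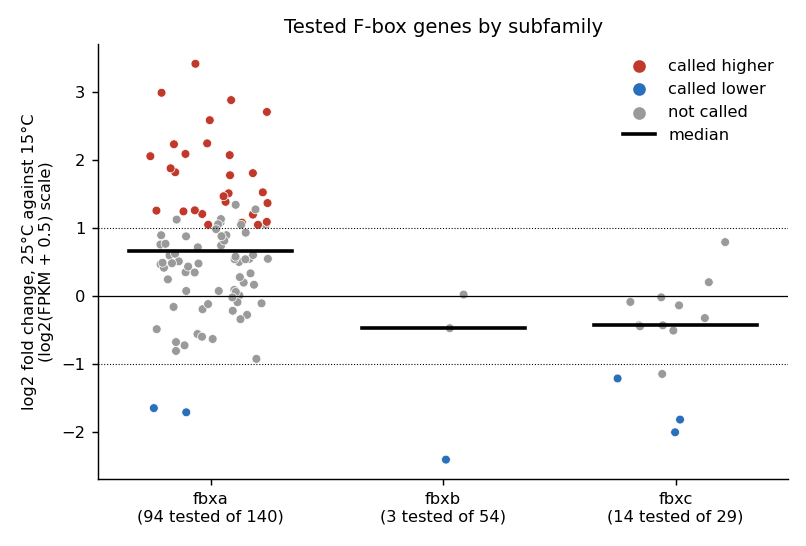
Log2FC values of the 111 tested F-box genes by subfamily, 25°C against 15°C, on the log2(FPKM + 0.5) scale. Each point is a gene, black bars are medians and dotted lines mark a 2-fold difference. The 28 genes called higher are all fbxa genes, but 94 of the 111 tested genes are fbxa genes. The medians are 0.67 for fbxa, -0.48 for fbxb and -0.43 for fbxc.

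The number called higher fell whichever library was left out, as did the number over all tested genes. Leaving out 15°C replicate 1 gave 17 higher, leaving out 25°C replicate 1 also gave 17 and leaving out 25°C replicate 3 gave 16, and 16 of the 28 genes were called whichever library was left out. Over all tested genes the count higher fell from 904 to 635, 602 and 561 in these fits. Only 3 were called by treat, which called 137 higher over all 12996 tested genes. The filter can favour members that are high at just 1 temperature, and 4 of the 28 had a mean under 1 FPKM at 15°C. With no filter, over all 140 fbxa genes, 30 were called higher and the median log2FC was 0.48. Over all 16391 genes of that fit, 888 were called higher. The FPKM of a library summed to between 2663992 and 3313082, with higher sums at 15°C. Bringing each library to the same FPKM sum moved the median over all tested genes to 0.15, and the fbxa median was then 0.84 and the fbxc median -0.26.

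In the 4 fbxa genes with the largest log2FC at the pseudocount of 0.5, every library at 25°C was well above every library at 15°C. Values by library are given in the order of replicates 1 to 3, with the 15°C group ahead of the 25°C group. fbxa-182, on chromosome II of the WBcel235 genome from 2409633 to 2412749, measured 0.432, 0.280 and 0.363 FPKM in the 15°C libraries and 7.88, 9.04 and 8.99 FPKM in the 25°C libraries. The lowest value at 25°C was far above the highest at 15°C. Its log2FC was 3.41 (SE 0.19, adjusted p = 0.00012 from limma). fbxa-105, on chromosome V from 7390529 to 7392029, measured 3.12, 6.21 and 3.81 FPKM and 43.8, 32.5 and 35.05 FPKM. Its libraries at 25°C were all more than 5 times as high as any at 15°C in level, and its log2FC was 2.99 (SE 0.25, adjusted p = 0.00033). fbxa-99, also on chromosome V, from 15981685 to 15982854, measured 0.447, 1.09 and 0.410 FPKM and 9.96, 6.06 and 7.41 FPKM, with a log2FC of 2.88 (SE 0.30, adjusted p = 0.00072). Its gene span overlaps that of oac-20 in the annotation, so reads of the 2 genes may not be fully separated. fbxa-82, on chromosome V from 15050887 to 15052530, measured 4.52, 6.02 and 8.16 FPKM and 50.4, 35.9 and 41.96 FPKM, a log2FC of 2.70 (SE 0.23, adjusted p = 0.00035). All 4 were called whichever library was left out. In means ± SD (n = 3 each), fbxa-182 went from 0.358 ± 0.0758 to 8.64 ± 0.655 FPKM and fbxa-105 from 4.38 ± 1.62 to 37.1 ± 5.96 FPKM. For each of these genes, as for every other F-box gene whose groups did not overlap, p was 0.10 in a two-sided exact permutation test, which cannot go lower with 3 libraries a group. The order depends on the pseudocount, and at 0.1 fbxa-158 (3.98) came after fbxa-182 (4.26) and ahead of fbxa-99 (3.49), fbxa-105 (3.104), fbxa-78 (2.90) and fbxa-82 (2.78).

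**Figure D2:**
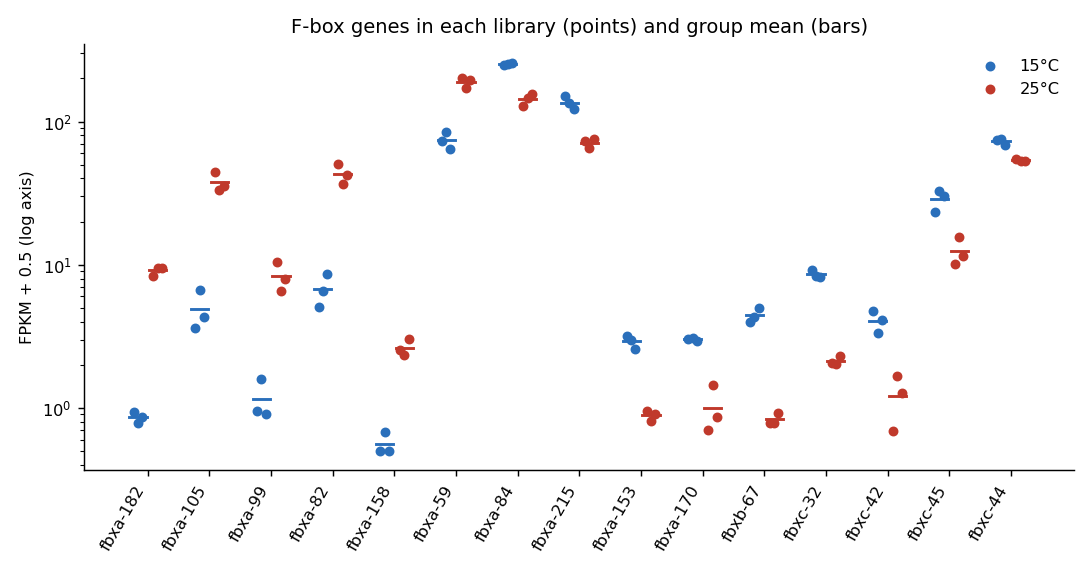
FPKM + 0.5 on a log axis for 15 F-box genes in each library, 15°C in blue and 25°C in red, with points for libraries and bars for group means. The groups do not overlap in any of the 15 genes. fbxa-182 rises from 0.358 to 8.64 FPKM in the mean and fbxb-67 falls from 3.94 to 0.333 FPKM.

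Most of the abundant members were not called, which held for most tested genes of that level as well. Of the 7 F-box genes averaging 50 FPKM or more, only fbxa-59 was called. Over all tested genes from 50 to 1000 FPKM, 6.14% were called higher and 5.33% lower. fbxa-59, on chromosome III from 939941 to 943476, measured 73.1, 83.3 and 63.9 FPKM in the 15°C libraries and 199.7, 172 and 195 FPKM in the 25°C libraries. The groups lay apart, with a log2FC of 1.36 (SE 0.13, adjusted p = 0.00056 from limma). An unnamed pseudogene overlaps its span. fbxa-84, the most abundant of all, measured 247, 252 and 254 FPKM in the 15°C libraries and 129, 146 and 155 FPKM in the 25°C libraries. Its log2FC of -0.81 (SE 0.11, adjusted p = 0.0017) passed on the p-value but not on the fold. fbxa-215 measured 150.5, 134 and 121 FPKM and 72.01, 65.2 and 74.6 FPKM. Its log2FC of -0.93 (adjusted p = 0.0018) was likewise short of the 2-fold threshold, and it was called lower without 15°C replicate 3 (-1.01). The remaining fbxa genes at this level, named after their values were seen, were fbxa-72 (log2FC 0.16), fbxa-101 (-0.28) and fbxa-107 (-0.12), none of them called. With the library sums made equal, the value of fbxa-107 was 0.062. fbxc-44, the most abundant fbxc gene, measured 73.8, 74.5 and 67.7 FPKM and 54.04, 52.6 and 52.6 FPKM. The 3 libraries at 25°C were below the others, with a log2FC of -0.44 (adjusted p = 0.014).

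By level, 15 of 36 tested fbxa genes with a mean from 10 to 50 FPKM were called higher, with a median log2FC of 0.82, where 8.01% of all tested genes in that range were. Between 1 and 10 FPKM it was 12 of 52, with a median of 0.59, against 6.81%. From 50 to 1000 FPKM it was 1 of 6, with a median of -0.20, against 6.14%. The summed FPKM of the 140 fbxa genes, in which abundant genes weigh most, was 1482, 1475 and 1318 in the libraries at 15°C and 2123, 1795 and 1994 at 25°C. The sum over the 29 fbxc genes was 203, 207 and 206 FPKM at 15°C and 145, 148 and 138 FPKM at 25°C. The sum over the 54 fbxb genes was 18.95, 14.3 and 17.3 FPKM and 10.7, 8.19 and 9.86 FPKM. In each subfamily the sums of the groups did not overlap, with fbxa higher and fbxb and fbxc lower at 25°C. The 28 fbxa genes called higher, chosen by this contrast, summed to 247 ± 27.9 FPKM in the cold and 818 ± 102 FPKM in the warm (SD, n = 3), and the other 112 to 1178 ± 71.5 and 1153 ± 63.4 FPKM.

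**Figure D3:**
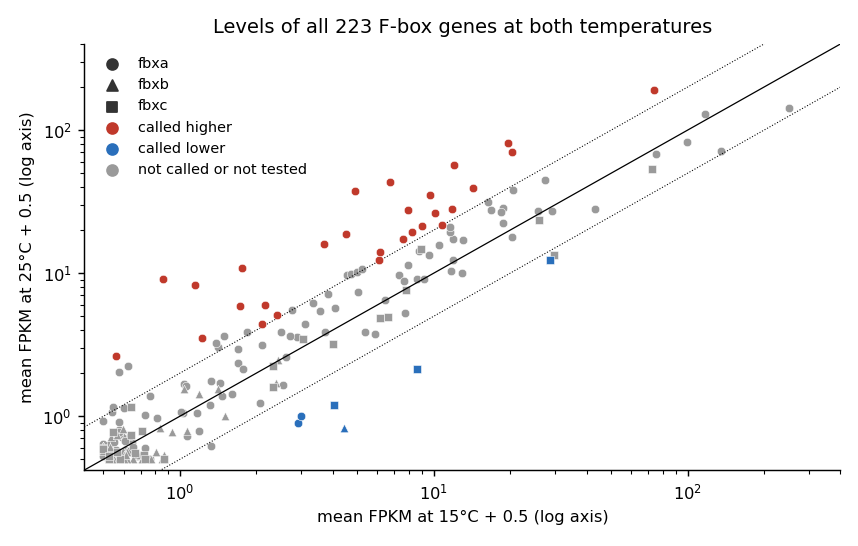
Mean FPKM + 0.5 at 15°C (x) and at 25°C (y), both on log axes, for all 223 F-box genes. Symbols give the subfamily and colours the call. The solid line is equality and the dotted lines are 2-fold differences. Most genes called higher have means between 1 and 50 FPKM. Of the 7 genes with a mean of 50 FPKM or more, 6 are not called, as are most tested genes of that level.

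Many neighbouring fbxa genes on chromosome III rose. Of the 28 genes called higher, 15 lay on chromosome III, where 39 fbxa genes were tested, 8 on chromosome V, with 36 tested, 3 on chromosome II, with 7 tested, and 1 each on chromosomes I and X. The share of all tested genes called higher was 4.94% on chromosome III, 10.6% on V, 7.07% on II, 4.11% on I and 7.08% on X. Called genes not described further, named after their values were seen, are fbxa-3 (log2FC 2.09), fbxa-90 (1.25), fbxa-125 (1.20) and fbxa-53 (1.09). Each of these calls was lost without some libraries, and that of fbxa-53 whichever library was left out. Runs were formed from F-box genes of the table separated by no more than 100 kb, and runs with at least 4 tested members are described. Positions come from Ensembl for 213 of the 223 genes and from RefSeq, on the same assembly, for the other 10. The runs set out here were picked after their values were seen. A run of 7 fbxa genes lies on chromosome III from 933422 to 963833, and another of 23 from 1236015 to 1384252. All 7 genes of the run nearer to the chromosome end were tested, 5 were called higher and the log2FC values ranged from 0.50 to 1.87, with a median of 1.36. In the longer run 19 were tested and 9 called higher, with log2FC values from 0.47 to 2.58 and a median of 1.07. The runs together held 14 of the 28 genes called higher, and in 24 of their 26 tested genes the libraries at 25°C lay above all those at 15°C. All 26 had a log2FC above 0, whereas 49 of the other 68 tested fbxa genes did, of which 14 were called higher and 2 lower, with a median of 0.47. The median log2FC of all tested genes on chromosome III was -0.13. Other tested genes were few within the runs, 2 in the shorter, with a median log2FC of 0.28, and 1 in the longer, at 0.41.

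The genes of these runs with the largest changes, named after their values were seen, were fbxa-78, fbxa-37, fbxa-20 and fbxa-15. fbxa-78, from 1257182 to 1258458, measured 1.31, 1.29 and 1.18 FPKM in the 15°C libraries and 14.3, 7.36 and 9.56 FPKM in the 25°C libraries, a log2FC of 2.58 (SE 0.25, adjusted p = 0.00059). fbxa-37, from 1284996 to 1287140, measured 9.89, 14.1 and 10.6 FPKM and 67.4, 43.1 and 57.9 FPKM, a log2FC of 2.23 (SE 0.21, adjusted p = 0.00048). In both, 25°C replicate 1 was the highest library and 25°C replicate 2 the lowest of the warm group, yet well above 15°C. fbxa-15, from 1318934 to 1321661, measured 18.8, 22.3 and 16.1 FPKM and 83.5, 67.5 and 90.6 FPKM, a log2FC of 2.05 (SE 0.17, adjusted p = 0.00032). Its span overlaps that of fbxa-19, with a log2FC of 1.82, so that these 2 calls may share reads. Both were called whichever library was left out, as were fbxa-79 (1.80), fbxa-51 (1.87), fbxa-54 (1.38) and fbxa-55 (1.46), likewise chosen after the values were known. The calls of fbxa-63 (1.26), fbxa-31 (1.24), fbxa-21 (1.07) and fbxa-23 (1.04) were lost without some libraries, each of them on leaving out replicate 1 of the 15°C group or replicate 1 or 3 of the 25°C group. That of fbxa-21 was lost whichever library was left out.

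Genes that RefSeq annotates as pseudogenes were among those called. Of the 8 such members, 3 were tested, fbxa-20, fbxa-21 and fbxa-23, all in these runs, and all were called higher. fbxa-20 measured 5.21, 3.94 and 2.86 FPKM in the 15°C libraries and 22.7, 14.1 and 18.1 FPKM in the 25°C libraries, with a log2FC of 2.07 (SE 0.25, adjusted p = 0.0013). Without the pseudogenes, an alternative chosen after the data were seen, 25 of 91 fbxa genes were called higher. The spans of 8 of the 28 genes called higher overlap another annotated gene, among them fbxa-78 and fbxa-23. Without all overlapping genes, also chosen after the data were seen, 20 of 81 were.

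**Figure D4:**
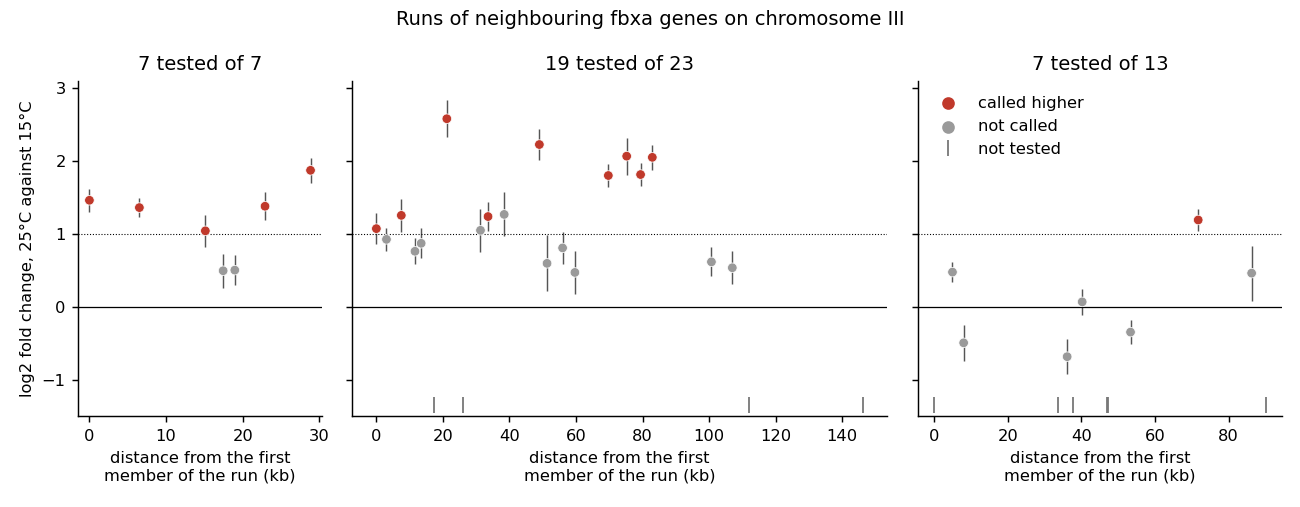
Log2FC (25°C against 15°C, error bars ± SE from limma) against distance from the first member, in kb, for the 3 runs of neighbouring fbxa genes on chromosome III. Ticks at the bottom are members that were not tested. All tested genes of the left and middle runs lie above 0, while those of the right run lie on either side of 0 with a median of 0.070.

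Runs elsewhere did not all behave in this way. Another run on chromosome III, 13 fbxa genes from 2219708 to 2314035, had 7 tested genes, with log2FC values from -0.68 to 1.19. Only fbxa-219 was called, at 5.76, 5.67 and 5.48 FPKM at 15°C and 15.0, 12.005 and 13.7 FPKM at 25°C (log2FC 1.19, adjusted p = 0.0013 from limma). On chromosome V a run of 7 members from 15981685 to 16144666 had 4 tested, of which fbxa-99 and fbxa-144 were called higher, and a run of 6 from 17259168 to 17379233 had 4 tested, of which the adjacent genes fbxa-188 (log2FC 1.77) and fbxa-189 (1.52) were. Of 28 other tested genes within the former, 2 were called higher and 5 lower, with a median log2FC of -0.27, and of 5 within the latter, 1 was called higher and 1 lower, with a median of -0.25. The F-box genes of these runs other than fbxa-99 were named after their values were seen. The call of fbxa-144, whose span overlaps that of fbxa-142, was lost whichever library was left out. That of fbxa-189 was lost on leaving out any library other than 15°C replicate 2. On chromosome II a run of 14 fbxc and 2 fbxb genes from 868814 to 1044032 had 4 tested genes, all fbxc, with log2FC values from -2.01 to -0.091, and fbxc-32 and fbxc-42 were called lower. Of 7 other tested genes within this run, 1 had a log2FC above 0 and 1 was called lower, with a median of -0.35.

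The 6 genes called lower were 5.41% of the 111 tested F-box genes, close to the 5.59% of all tested genes. They came from all 3 subfamilies and, apart from fbxc-45 and fbxc-32, had means under 1 FPKM at 25°C. fbxb-67, on chromosome I, measured 3.51, 3.81 and 4.50 FPKM in the 15°C libraries and 0.287, 0.289 and 0.423 FPKM in the 25°C libraries. It was the most abundant fbxb gene and had the largest fall of the family, with a log2FC of -2.41 (SE 0.22, adjusted p = 0.00047 from limma). fbxb-38, the next most abundant, measured 3.37, 1.23 and 1.21 FPKM and 3.50, 1.15 and 1.30 FPKM. Its groups overlapped almost completely, with replicate 1 high in each and a log2FC of 0.02. fbxc-32, on chromosome II from 946485 to 948191, measured 8.74, 7.85 and 7.65 FPKM and 1.56, 1.53 and 1.80 FPKM, a log2FC of -2.01 (SE 0.17, adjusted p = 0.00035). The calls of fbxb-67 and fbxc-32 held whichever library was left out, and those of the other 4 did not. The number of F-box genes called lower was 3 on leaving out replicate 1 or 2 of the 15°C group or replicate 1 or 3 of the 25°C group.

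fbxc-42, on chromosome II from 991600 to 993179, measured 4.23, 2.83 and 3.58 FPKM in the 15°C libraries and 0.191, 1.16 and 0.766 FPKM in the 25°C libraries (log2FC -1.82, adjusted p = 0.0077), and was called only with all libraries or without 25°C replicate 2. fbxc-45, on chromosome IV from 2919827 to 2922243, measured 22.7, 32.02 and 29.7 FPKM and 9.67, 15.0 and 11.002 FPKM (log2FC -1.22, adjusted p = 0.0046). Its call was lost on leaving out replicate 2 or 3 of the 15°C group or replicate 1 or 3 of the 25°C group. These values put both genes below their 15°C libraries in every library at 25°C. fbxa-153, on chromosome V, measured 2.69, 2.50 and 2.09 FPKM and 0.457, 0.305 and 0.407 FPKM (log2FC -1.72, adjusted p = 0.0020), a call lost without 15°C replicate 1. fbxa-170, on chromosome X, measured 2.52, 2.57 and 2.44 FPKM and 0.203, 0.949 and 0.361 FPKM (log2FC -1.65, adjusted p = 0.0069), and was called only with all libraries or without 25°C replicate 2. fbxc-47, the second most abundant fbxc gene, measured 28.6, 24.2 and 23.7 FPKM and 24.8, 24.6 and 19.9 FPKM, with overlapping groups and a log2FC of -0.14 that was 0.039 after rescaling to TPM. Its span overlaps another annotated gene.

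At the threshold, the genes just inside by fold among those with an adjusted p under 0.01 were fbxa-156 (log2FC 1.04) and fbxa-23 (1.04). Both calls were lost on leaving out any library other than 15°C replicate 2. The genes just outside were fbxa-215 (-0.93) and fbxa-61 (0.93), the latter at 15.5, 18.04 and 14.1 FPKM in the cold and 31.1, 26.4 and 34.6 FPKM in the warm. fbxa-61 was called higher after rescaling to TPM (1.06) or with equal sums (1.11). A further 8 fbxa genes and 1 fbxc gene were beyond 2-fold in the estimate but not under an adjusted p of 0.01.

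fbxa-158 is known from the intracellular pathogen response, a set of C. elegans genes induced by microsporidia and viruses that invade intestinal cells and also by chronic heat. In that response the cullin CUL-6, the Skp1-related proteins SKR-3, SKR-4 and SKR-5 and the F-box proteins FBXA-75 and FBXA-158 have been described as parts of a ubiquitin ligase that promotes thermotolerance. fbxa-158, on chromosome II from 1619814 to 1621280, had listed values of 0, 0.175 and 0 FPKM in the 15°C libraries, against 2.02, 1.84 and 2.52 FPKM in the warm. Its log2FC was 2.24 (SE 0.28, adjusted p = 0.0013 from limma) and 3.98 with a pseudocount of 0.1, and with any 1 library of the 25°C group left out its mean no longer passed the filter. cul-6, on chromosome IV, measured 7.09, 6.77 and 5.88 FPKM and 27.5, 24.04 and 26.6 FPKM, a log2FC of 1.91 (SE 0.14, adjusted p = 0.00023), and was called whichever library was left out. Every library of cul-6 at 25°C was above 3 times any at 15°C. Its partners skr-3, skr-4 and skr-5, named after their values were seen, were not called. skr-3 measured 185, 242 and 151 FPKM and 378, 353 and 393 FPKM, with groups apart and a log2FC of 0.98 (adjusted p = 0.0051), just short of the fold. skr-4 had a log2FC of 0.52 and skr-5 of -0.26, both with overlapping groups, and that of skr-5 was above 0 without 15°C replicate 1 or 25°C replicate 2. fbxa-75 was not analysed here.

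Of 47 genes listed for this response, 36 had FPKM values and 17 were tested. Of the 19 not tested, 15 stayed under 1 FPKM in every library. Among the 17, limma called 5 higher and 0 lower, against 6.96% and 5.59% of all tested genes. By an unadjusted p under 0.05, 9 were higher and 1 lower, against 22.9% and 26.9% of all tested genes. The median log2FC was 0.52. Besides fbxa-158 and cul-6 the genes called were pals-19 (1.49), pals-16 (1.20) and pals-17 (1.05), of a gene family named for a shared protein signature. pals-16 and pals-17 were chosen with their values known, and the call of pals-19 was lost whichever of the 6 libraries was left out. Many of the listed genes are of the pals family, and whether each is induced in this response was not tested. The counts therefore do not measure induction of the response.

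Most genes of the SCF core were not called, which held for most tested genes as well. cul-1 measured 46.8, 41.1 and 50.3 FPKM in the 15°C libraries and 44.8, 40.7 and 40.7 FPKM in the 25°C libraries, with overlapping groups and a log2FC of -0.13 (adjusted p = 0.44 from limma) that was 0.058 with equal library sums. rbx-1 measured 713, 614 and 558 FPKM and 454, 498 and 459 FPKM, with groups apart and a log2FC of -0.41 (adjusted p = 0.030). Of 25 listed cullin, RING and Skp1-related genes, 17 were tested, cul-6 alone was called higher and skr-7 and skr-10 were called lower, with a median log2FC of -0.13. That is 5.88% higher and 11.8% lower, against 6.96% and 5.59% of all tested genes. skr-7 measured 5.85, 3.41 and 2.09 FPKM and 0, 0.174 and 0.448 FPKM (log2FC -2.55, adjusted p = 0.0035), and the call was lost on leaving out replicate 1 or 2 of the 15°C group or replicate 1 of the 25°C group. skr-10 measured 2.12, 1.71 and 1.98 FPKM and 0.546, 0.550 and 0.796 FPKM (log2FC -1.11, adjusted p = 0.0097), and its call was lost whichever library was left out. Both of these Skp1-related genes stayed under 6 FPKM in every library.

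Of 8 tested genes for NEDD8 attachment to cullins and its removal by the COP9 signalosome, which switch cullin ligases on and off, 0 were called in either direction by limma or treat. By an unadjusted p under 0.05, 0 were higher and 7 lower, against 22.9% and 26.9% of all tested genes. Their median log2FC was -0.57. Of 10 tested F-box genes with names of their own, 0 were called higher and 2 lower by limma, and treat called 0 higher. By an unadjusted p under 0.05, 2 were higher, close to the 22.9% of all tested genes, and 4 lower, against 26.9%. The 2 genes were prom-1 (log2FC -1.29), which acts in meiotic chromosome pairing, and skpt-1 (-1.16), related to the cell cycle regulator SKP2. The median of these 10 was -0.24. The calls of prom-1 and skpt-1 were both lost without 15°C replicate 1, 2 or 3 or 25°C replicate 3, and that of skpt-1 also without 25°C replicate 1.

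**Figure D5:**
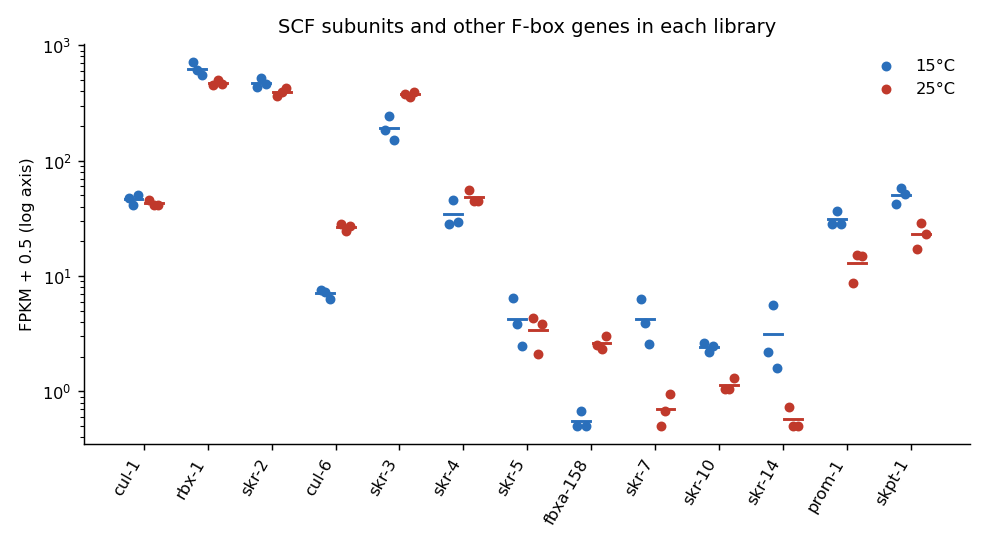
FPKM + 0.5 on a log axis in each library for SCF subunit genes, fbxa-158, prom-1 and skpt-1, 15°C in blue and 25°C in red, with points for libraries and bars for group means. cul-6 and fbxa-158 are higher in all 3 libraries at 25°C, whereas cul-1 overlaps between the temperatures.

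The libraries of the temperatures also differed in markers of the germ line and of reproduction. All 7 oocyte markers had a log2FC below 0 and 5 were called lower, with a median of -2.12, and their summed level ranged from 1637 to 2094 FPKM at 15°C and from 467 to 703 FPKM at 25°C. Of 5 general germline markers, 3 were called lower, with summed levels of 770.3 to 1161 FPKM against 325 to 562 FPKM, and of 5 tested vitellogenin genes, which encode yolk proteins made in the intestine of adults, 3 were, with summed levels of 2760 to 4626 FPKM against 1568 to 1910 FPKM. Of 17 sperm markers 0 were called in either direction by limma or treat, 1 being higher and 5 lower by an unadjusted p under 0.05, against 22.9% and 26.9% of all tested genes, and their summed level was 19009 to 27261 FPKM against 18226 to 19685 FPKM. Most of these 17 are msp genes of the same gene family, so they do not count as separate markers. Of 7 intestinal markers 1 was called higher, 3 being higher and 1 lower by an unadjusted p under 0.05. Their summed levels were 1841 to 2405 FPKM against 2125 to 2174 FPKM. Most of that sum was act-5, named after its values were seen, with means of 1431 FPKM at 15°C and 1163 FPKM at 25°C. Of 4 markers of body wall muscle, 6 of neurons and 3 of the epidermis, 0 were called by limma or treat, while 0, 1 and 2 were lower and 0 higher by an unadjusted p under 0.05. No marker of the lists was at 0 in all libraries. In whole worms, fewer cells of a type, less RNA per cell and a difference in developmental stage between the groups cannot be told apart. The part of these differences in the values of the F-box genes was not tested.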

How the data were processed

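RNA-seq was performed on 6 libraries of whole L4 worms. According to the labels and the methods of the study, the authors aligned reads to WBcel235 with TopHat2 2.0.6, used the Cufflinks tools and deposited FPKM values, 1 per gene and library. No source used here gives the filters applied to the table. The values are estimates that reach down to 9.81e-258 FPKM and carry no read counts, so the depth is unknown and precision rests on the spread between libraries. Every column of FPKM in the table was used.

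Genes averaging 1 FPKM or more were fitted as log2(FPKM + 0.5) with limma 3.58.1 (R 4.3.3), with the intensity trend on, over the 6 libraries and without covariates. Adjusted p are Benjamini-Hochberg values over 12996 genes, and tests are two-sided. The script was tested on simulated data. Positions are from Ensembl release 115 and RefSeq (WBcel235). Python 3.11.15, pandas 2.3.3, scipy 1.17.1 and matplotlib 3.10.9 were used.

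The members and lists were chosen with earlier results of these data known. Genes were named by rule: in each subfamily the 4 called genes with the largest rise, the 3 with the largest fall and the 2 most abundant, then fbxa-158, the genes nearest to the fold threshold, and the called genes of the lists with the largest change. The core subunits cul-1, cul-6 and rbx-1 were named whatever their values. Others are marked. The alternatives tried were other pseudocounts (0.1 and 1), fitting without the filter or with one at 5 FPKM, scaling by median ratios, to TPM or to equal sums, a threshold of 0.05 on the adjusted p, treat, a fit that ignored the trend, a block by replicate number, and leaving out each library. Planned descriptions of protein identity and promoter motifs were not made, because no sequence was used here.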

Additional observations from a re-analysis of the deposited data

How the results depend on the processing

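Counts of called F-box genes moved with the test, the filter, the scaling and single libraries. Under treat the count higher was 3, all fbxa genes, and 0 fbxa, 0 fbxb and 0 fbxc genes were lower. Of 6 lower genes, 1 remained with a mean of at least 5 FPKM (0 fbxa, 1 fbxc), where no fbxb gene was left to test. Rescaling to TPM left 3 lower (0 fbxa), and pseudocount 0.1 or equal sums left 1 fbxa gene lower. The median log2 fold change was 0.10 over all members with no filter (0.48 for fbxa, -0.14 for fbxc) and 0.71 with equal sums (0.84 for fbxa, -0.26 for fbxc). The fbxc median log2 fold change was -0.38 at a pseudocount of 1 and -0.21 as TPM. With each library left out, the count higher ranged from 16 to 27, all fbxa, and the count lower from 3 to 6 (fbxa 0 to 2, fbxc 1 to 3), and the medians ranged from 0.57 to 0.90 for fbxa and from -0.55 to -0.34 for fbxc. Over all tested genes the count higher in these fits ranged from 561 to 855. Deviations of same-numbered libraries correlated at -0.035, -0.10 and -0.050, and those of differently numbered libraries at -0.12 to 0.16. Deviations were taken from the mean of each group of 3, so these correlations are tied together. They cannot show whether libraries were paired by replicate number. With the replicate block 19 genes were higher and 3 lower (0 fbxa lower), and 597 higher and 406 lower over all tested genes.

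Some single values changed sign. fbxb-38 was at -0.17, -0.18 and -0.39 without 15°C replicate 2, 15°C replicate 3 and 25°C replicate 1, and at most at 0.41 without 15°C replicate 1. fbxc-47 was at 0.039 and 0.040, cul-1 at 0.056 and 0.058 and fbxa-107 at 0.061 and 0.062 as TPM and with equal sums. Without 15°C replicate 1 fbxa-107 was at 0.010 and skr-5 at 0.10, and without 25°C replicate 2 skr-5 was at 0.057, while with other libraries left out they reached -0.22 and -0.59. The alternative without members of near-identical protein sequence was not run. FPKM without depth give no counting error.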

Other observations

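Below the filter, 3 fbxa genes met the thresholds when every gene of the table was fitted. They were named after their values were seen. fbxa-166 measured 0.0734, 0.302 and 0 FPKM in the 15°C libraries and 2.03, 1.79 and 1.43 FPKM in the 25°C libraries, with a log2 fold change of 1.87 (adjusted p = 0.0020 from limma with no filter). fbxa-88 measured 0.220, 0 and 0 FPKM and 1.08, 1.28 and 2.205 FPKM (log2 fold change 1.80, adjusted p = 0.0037), and its span overlaps that of fbxa-18. fbxa-46, annotated as a pseudogene by RefSeq, measured 0.129, 0 and 0 FPKM and 0.462, 0.858 and 0.667 FPKM (log2 fold change 1.09, adjusted p = 0.0073). All 3 were higher in every library at 25°C, at levels where a listed 0 can be a failed estimate.

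Among the fbxb genes, 27 of 54 were listed at 0 in every library at 25°C and 3 in every library at 15°C. For fbxc the numbers were 5 and 2 of 29, for fbxa 4 and 6 of 140, and for all genes listed 495 and 289 of 16391 genes.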
